A study of Mus musculus with 12 samples.

Results

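Itaconate is made from the tricarboxylic acid (TCA) cycle by a single enzyme, and 9 genes around that step are described here across macrophages treated with lipopolysaccharide (LPS). They were listed by name for their place in the pathway, with earlier results of these data known, and all 9 of them were among the 16920 genes in each table. They are Acod1 (also called Irg1), which makes itaconate, Cs, Idh1, Idh2, Ogdh, Fh1, Mdh1 and Mdh2, which carry steps of the cycle or their cytosolic counterparts, and Slc25a1, which moves citrate out of mitochondria.

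RNA-seq had been performed on 12 libraries of peritoneal macrophages (PMs), 3 in each of 4 groups. The PMs came from wild-type (WT) mice or from mice labelled Ythdf1-/- (KO), a deletion made with CRISPR/Cas9 in the whole animal on a C57BL/6 background. YTHDF1 is a reader of m6A marks on RNA. The cells had been drawn into the peritoneum with an intraperitoneal irritant, kept overnight in culture, and exposed to PBS or to 1 µg/mL LPS, a component of the bacterial wall, for 6 h. All 4 groups shared the irritant, named as 6% starch broth given for 3 days in the series record and as thioglycollate in the methods, and the overnight culture. Ages of the animals are not given in the labels. The study's methods give an age range for its mice in general and no age for the macrophage donors in particular. The series text calls the samples of each group triplicates, and the extraction notes and the study's methods call them independent biological replicates. Whether each came from its own mouse is not stated there, and the p-values measure the spread between these samples.

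In the mitochondrial TCA cycle, citrate synthase joins acetyl groups to oxaloacetate, and citrate is then turned step by step back into oxaloacetate while electrons are passed to the respiratory chain. In macrophages that meet bacterial products, ACOD1 takes cis-aconitate from the cycle and makes itaconate, which is known to inhibit succinate dehydrogenase and to modify proteins of the inflammatory response. Citrate carried to the cytosol feeds the synthesis of fatty acids.

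The targeted gene was examined first. Ythdf1 stood at 43.6, 45.0 and 41.9 CPM (read counts per unit of sequencing depth, after TMM scaling of the libraries) in WT PMs with PBS, and at 55.4, 58.1 and 58.1 CPM in KO-labelled PMs with PBS. With LPS it stood at 212, 198 and 194 CPM in WT and at 196, 192 and 205 CPM in KO-labelled libraries. Ythdf1 transcripts were thus not lower under the KO label. The log2 fold change of KO-labelled over WT was 0.40 with PBS (adjusted p = 0.000133) and -0.03 with LPS (adjusted p = 0.724), and the latter became 0.01 without WT LPS replicate 1. A count per gene does not show whether the deleted stretch is present, so each genotype comparison below rests on the labels alone, and the libraries are called KO-labelled throughout.

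Total counts lay between 21546274 and 22017005 per library. Macrophage markers made up 22435 to 25333 CPM in every library, with all 10 of them above 3 counts. Within that sum, led by Lyz2, single markers moved with the label, among them Mrc1 at 263 to 280 CPM in WT PBS and 109 to 125 in KO-labelled PBS libraries, Mertk at 225 to 246 CPM in WT LPS and 87.6 to 107 in KO-labelled LPS libraries, and Cd14 at 433 to 479 against 694 to 764 CPM with LPS. WT LPS replicate 1 stood apart from its group: its mean chi-square per gene against replicates 2 and 3 was 30.5 and 23.7, against 2.95 between those replicates. Among KO-labelled LPS libraries this value was 15.3 for replicates 2 and 3, 6.87 for 1 and 2 and 5.43 for 1 and 3. Pairs within the PBS groups lay between 2.73 and 4.57. The summed level of 12 skeletal muscle markers lay between 28.3 and 49.3 CPM in the WT libraries and was 27.4 and 32.6 CPM in KO-labelled PBS replicates 1 and 2. It was 3.76 CPM in KO-labelled PBS replicate 3 and 1.71 to 2.49 CPM with LPS under the KO label, with 6 of the 12 genes at 0 counts in each of those libraries. Tnni2 alone made up 3.37 CPM of the sum in KO-labelled PBS replicate 3 and 0.857 to 1.49 CPM with LPS under that label. With PBS, Tnni2 did not follow the other muscle genes and stood at 3.37 to 4.11 CPM in all libraries.

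The members lie on separate parts of the mouse genome (GRCm38.p6). Acod1 (gene 16365) is at chr14:103047012-103056573 on the plus strand, Cs (12974) at chr10:128337727-128362482 on the plus strand and Slc25a1 (13358) at chr16:17925211-17928219 on the minus strand. The cytosolic and peroxisomal Idh1 (15926) is at chr1:65158616-65186479 and the mitochondrial Idh2 (269951) at chr7:80094845-80118608, both on the minus strand. Ogdh (18293) is at chr11:6291597-6359094 on the plus strand and Fh1 (14194) at chr1:175601378-175625635 on the minus strand. The cytosolic Mdh1 (17449) is at chr11:21556692-21571934 on the minus strand and the mitochondrial Mdh2 (17448) at chr5:135778649-135790386 on the plus strand. Counts were summed over the exons of each gene, so no value here belongs to one exon or isoform.

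The sequences upstream of the member that rose most and the member that fell most with LPS are shown, since the paragraphs below turn on that pair. Each is the 250 bases before the first annotated start in the RefSeq table of GRCm38.p6, 5′ to 3′ on the strand of the gene, at chr14:103046762-103047011 (plus) for Acod1 and chr1:65186480-65186729 (minus) for Idh1. Capitals mark matches to any of 5 short motifs searched on both strands.
Acod1 upstream window: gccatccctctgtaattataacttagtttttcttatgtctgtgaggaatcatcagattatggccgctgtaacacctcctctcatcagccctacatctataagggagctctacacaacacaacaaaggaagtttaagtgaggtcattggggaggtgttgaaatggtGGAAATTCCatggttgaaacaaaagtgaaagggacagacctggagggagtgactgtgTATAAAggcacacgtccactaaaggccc
Idh1 upstream window: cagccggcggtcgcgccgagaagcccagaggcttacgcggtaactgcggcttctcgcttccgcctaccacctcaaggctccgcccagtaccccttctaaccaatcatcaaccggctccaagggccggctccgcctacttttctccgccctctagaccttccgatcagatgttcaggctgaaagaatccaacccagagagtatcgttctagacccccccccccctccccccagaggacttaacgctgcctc
The motifs were TATAAA (the TATA box, in 12.4% of 32851 upstream windows of this length), GGANNTTCC (an NF-kB-type site, 3.59%), TGACGTCA (a cyclic AMP response element, 1.55%) and TGACNNNGC (an antioxidant-response core, 10.2%). The fifth was an interferon-response core, GAAA repeated after any 2 bases (2.98%). None of the matches printed overlaps another. In the Acod1 window TATAAA begins 28 bases and GGAAATTCC 85 bases upstream of the start. The Idh1 window holds none of the 5 and has a GC content of 61.6%, against 44.4% in the Acod1 window. A second annotated start of Idh1 has GGAATCTCC, a match on the other strand, 146 bases upstream. All 9 members were found in the promoter table. Of the other 7, only Ogdh (windows of 3 of its 6 starts, 51, 60 and 113 bases upstream) and Mdh2 (127 bases upstream) had any match, and both had TGACGTCA. These matches are letters in a window and no measure of binding.

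The first question of the design was what LPS does to these transcripts. In WT PMs 3 of 9 members rose (Acod1, Cs and Slc25a1) and 4 fell (Idh1, Idh2, Fh1 and Mdh1), but the rises of Cs and Slc25a1 became falls when libraries were scaled by their totals alone. Over all 12064 genes tested 36.5% were called higher and 40.2% lower, so the share of members that changed was close to the background. The median log2 fold change of the members was 0.02 and that of all genes tested -0.05. Acod1 rose by 10.13 on the log2 scale and Idh1 fell by 3.68, and these were the only members that changed by more than 1 log2 unit, which 17.2% of all genes did upward and 19.2% downward.

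Acod1, the itaconate-making enzyme, had the largest change of the 9. Its level was 6.36, 7.08 and 9.01 CPM in WT PBS libraries and 8461, 8448 and 8320 CPM with LPS. In KO-labelled libraries it was 3.89, 4.70 and 10.3 CPM with PBS and 9783, 10019 and 10184 CPM with LPS. Every LPS library lay far above every PBS library under both labels. The log2 fold change was 10.13 ± 0.330 (SE, n = 3 against 3, adjusted p = 3.59e-10) in WT, a 1122-fold rise, and 10.63 ± 0.336 (adjusted p = 2.44e-10) under the KO label. Acod1 made up a mean of 0.000949% of all counts in WT PBS and 0.673% in WT LPS libraries. By fold change it ranked 21st from the top of 12064 genes in WT and 24th under the KO label. The PBS libraries held only 111 to 292 counts of Acod1 per library, against 146298 or more with LPS.

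The 5 genes whose log2 CPM followed Acod1 most closely over the 12 libraries were Gbp5 (Pearson r = 0.9998), Mefv (0.9995), Cxcl10 (0.9992), Socs3 (0.9992) and Cmpk2 (0.9991). Gbp5 encodes an interferon-induced GTPase, Cxcl10 a chemokine and Socs3 an inhibitor of cytokine signalling. The values are a description, since the libraries fall into PBS and LPS clusters and any gene that is low in one and high in the other scores near 1. Their log2 fold changes with LPS in WT were 10.37, 5.35, 12.01, 6.59 and 9.27 in the order named.

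**Figure D1:**
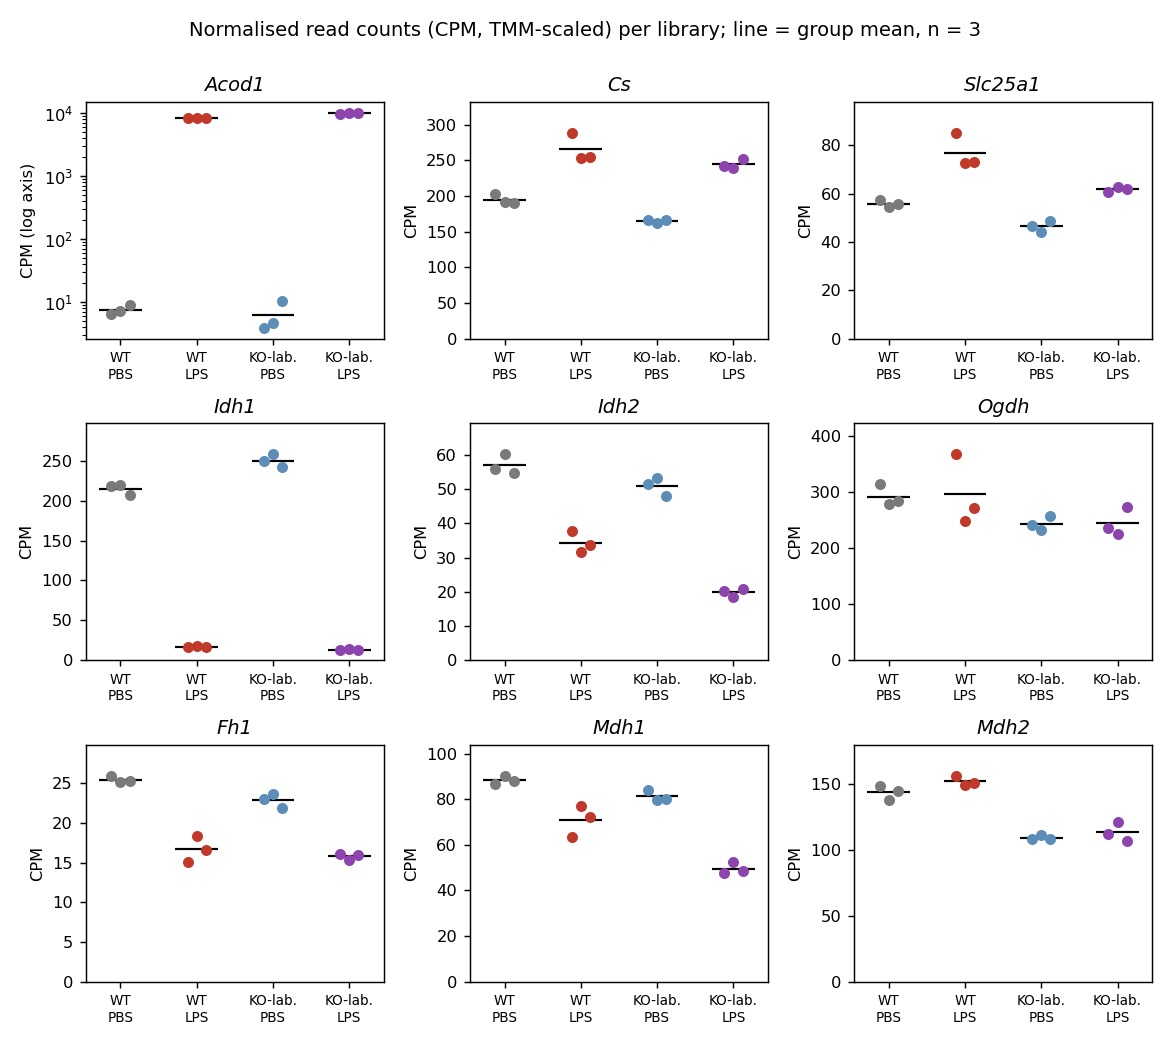
CPM of each member in each library (points) by group, with the group mean of 3 libraries as a line. The axis of Acod1 is logarithmic and the others start at 0. Acod1 is at 8320 CPM or more in all LPS libraries and at most 10.3 CPM in all PBS libraries, Idh1 shows the opposite order, and Ogdh overlaps between PBS and LPS.

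Idh1, the NADP-dependent isocitrate dehydrogenase of cytosol and peroxisomes, had the deepest fall among the members. It stood at 219, 219 and 208 CPM in WT PBS and at 16.5, 17.5 and 16.5 CPM in WT LPS libraries. Under the KO label it stood at 249, 258 and 243 CPM with PBS and at 12.5, 14.2 and 12.7 CPM with LPS. PBS and LPS libraries were far apart under both labels, with 203 to 307 counts left in each LPS library. The log2 fold change was -3.68 ± 0.0661 (adjusted p = 1.35e-17) in WT, 12.8-fold lower, and -4.25 ± 0.0687 (adjusted p = 3.40e-18) under the KO label, 19.0-fold lower. Idh1 ranked 162nd and 159th from the bottom among the genes tested.

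Idh2, the mitochondrial NADP-dependent counterpart, fell less. Its level was 55.7, 60.2 and 54.8 CPM in WT PBS and 37.8, 31.7 and 33.7 CPM in WT LPS libraries. In KO-labelled libraries it was 51.5, 53.3 and 48.0 CPM with PBS and 20.3, 18.6 and 20.9 CPM with LPS. The LPS libraries were lower than all PBS libraries under either label, and the lowest were those with the KO label and LPS. Idh2 fell by 0.73 on the log2 scale in WT (SE 0.0740, adjusted p = 1.21e-07) and by 1.36 under the KO label (SE 0.0786, adjusted p = 5.82e-11).

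The enzymes after succinate fell or did not pass the test. Fh1 encodes fumarase, which turns fumarate into malate. Fh1 stood at 25.9, 25.1 and 25.3 CPM with PBS and at 15.0, 18.3 and 16.6 CPM with LPS in WT, and at 23.0, 23.7 and 21.9 CPM against 16.1, 15.3 and 15.9 CPM under the KO label. It fell by 0.61 (SE 0.0739, adjusted p = 1.05e-06) and by 0.53 (SE 0.0755, adjusted p = 5.63e-06), with no overlap between PBS and LPS libraries. Mdh1, the cytosolic malate dehydrogenase of the malate-aspartate shuttle, was 86.5, 90.3 and 87.9 CPM in WT PBS and 63.4, 76.9 and 72.3 CPM in WT LPS libraries. Under the KO label Mdh1 was 84.1, 79.7 and 80.2 CPM with PBS and 47.5, 52.5 and 48.6 CPM with LPS. All LPS libraries lay below all PBS libraries, and those with the KO label lay lowest. Mdh1 fell by 0.32 in WT (SE 0.0684, adjusted p = 0.000490) and by 0.72 under the KO label (SE 0.0700, adjusted p = 6.31e-08).

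Mdh2, the malate dehydrogenase inside mitochondria that closes the cycle, did not pass the test with LPS. It was 149, 138 and 145 CPM in WT PBS and 157, 149 and 151 CPM in WT LPS libraries, and 109, 112 and 108 CPM against 112, 122 and 107 CPM under the KO label. WT libraries did not overlap between PBS and LPS by a narrow margin, and KO-labelled libraries did. The log2 fold change was 0.08 ± 0.0574 (adjusted p = 0.202) in WT and 0.06 ± 0.0580 (adjusted p = 0.389) under the KO label. With DESeq2 the WT value became 0.13 (adjusted p = 0.0423), and with a GC correction the values were 0.22 and 0.23 (adjusted p = 0.00140 and 0.00115). With upper-quartile scaling they were -0.23 and -0.30 (adjusted p = 0.00242 and 0.000248). By library totals alone they were -0.58 and -0.75 (adjusted p = 5.49e-08 and 2.18e-09).

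Cs encodes citrate synthase, the entry step of the cycle, and Slc25a1 the mitochondrial citrate carrier. Cs was 203, 191 and 191 CPM in WT PBS and 289, 253 and 254 CPM in WT LPS libraries, and 166, 162 and 166 CPM against 242, 240 and 252 CPM under the KO label. Slc25a1 was 57.3, 54.3 and 55.8 CPM with PBS and 85.2, 72.7 and 73.0 CPM with LPS in WT, and 46.6, 44.3 and 48.7 CPM against 60.8, 62.9 and 61.9 CPM under the KO label. After TMM scaling all LPS libraries lay above all PBS libraries of the same label for both genes, but as shares of all counts both went the other way, with means for Cs of 0.0247% with PBS and 0.0212% with LPS in WT and for Slc25a1 of 0.00707% and 0.00615%. Cs rose by 0.44 in WT (SE 0.0588, adjusted p = 3.01e-06) and by 0.57 under the KO label (SE 0.0590, adjusted p = 1.28e-07) with TMM, and was -0.22 and -0.23 when libraries were scaled by totals alone. Slc25a1 rose by 0.46 (SE 0.0669, adjusted p = 8.13e-06) and by 0.41 (SE 0.0680, adjusted p = 3.43e-05), and was -0.20 and -0.39 by totals alone, while under the KO label upper-quartile scaling left 0.05 (adjusted p = 0.439). Without WT LPS replicate 1, the highest library for both, the rises in WT were 0.38 and 0.38 and both still passed the test (adjusted p = 6.53e-07 and 4.18e-06).

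Ogdh encodes the first subunit of 2-oxoglutarate dehydrogenase, the step that commits carbon to succinyl-CoA. It was 314, 279 and 284 CPM in WT PBS and 368, 249 and 271 CPM in WT LPS libraries, and 241, 233 and 257 CPM against 236, 226 and 273 CPM under the KO label. PBS and LPS libraries overlapped under both labels, and WT LPS replicate 1 was the highest of the 12. The log2 fold change was 0.02 ± 0.119 (adjusted p = 0.894) in WT and 0.01 ± 0.119 (adjusted p = 0.962) under the KO label. Without WT LPS replicate 1 the WT value was -0.17 (adjusted p = 0.0522). Ogdh passed as lower with 2 other scalings. With upper quartile it was -0.30 in WT and -0.35 under the KO label (adjusted p = 0.0182 and 0.00661). By library totals alone it was -0.65 and -0.80 (adjusted p = 5.30e-05 and 6.39e-06). Ogdh counts carried decimals in all 12 libraries, which arise where reads are shared between transcripts of different genes.

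**Figure D2:**
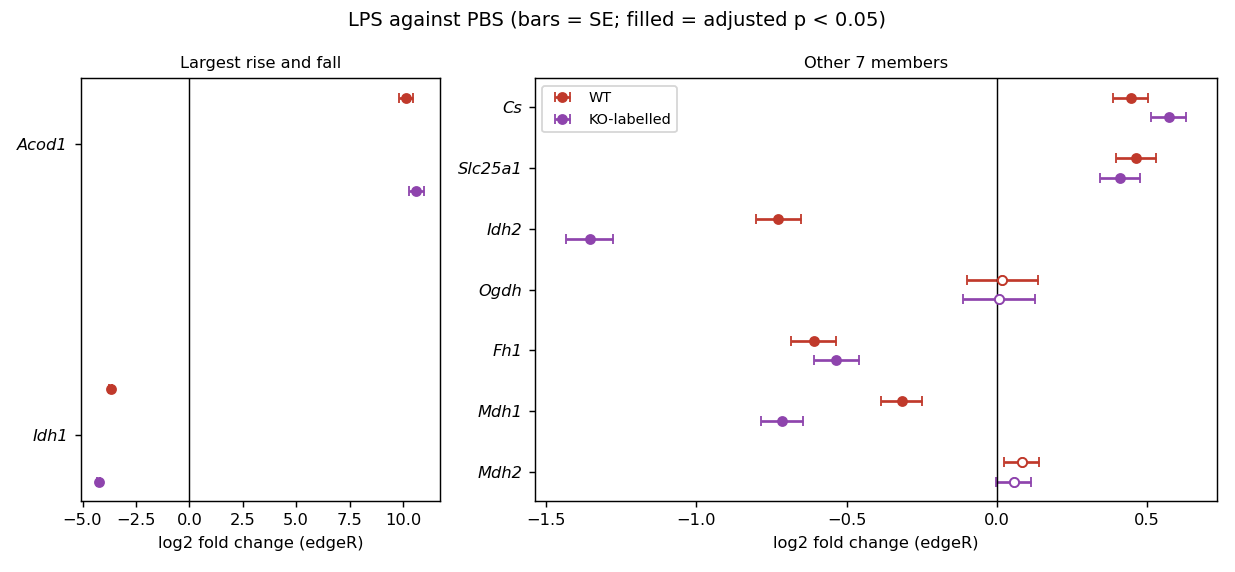
Log2 fold change of LPS over PBS (edgeR, bars are SE, 3 libraries per group) in WT and KO-labelled PMs, with filled points where the adjusted p is under 0.05 and open points where it is not. Acod1 and Idh1 have a panel of their own with a wider axis. Idh2 and Mdh1 are further to the left under the KO label, Ogdh and Mdh2 lie near 0, and Cs and Slc25a1 lie to the right with this scaling but left of 0 by library totals alone.

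The KO-labelled PMs answered the same question with the same calls: 3 of 9 members rose, with the same reversal of Cs and Slc25a1 by totals alone, and 4 fell, against 38.8% and 41.1% of all genes. Idh2 joined Acod1 and Idh1 past 1 log2 unit, which 19.3% of all genes passed upward and 22.4% downward. WT and KO-labelled comparisons use separate PBS and LPS libraries but 1 shared estimate of the spread. Calls for Acod1, Idh1, Idh2, Fh1 and Mdh1 with LPS were kept in all 22 alternative settings under both labels.

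Per kb of exon, the order of the members changed with LPS. In WT PBS the highest were Mdh2 at 98.8 CPM per kb, Idh1 at 86.9, Cs at 66.7 and Ogdh at 65.7, the last pair overlapping between libraries. Below them came Mdh1 at 41.6, then Slc25a1 at 33.5 and Idh2 at 32.6, which overlapped, Fh1 at 9.65 and Acod1 at 2.85 CPM per kb. In WT LPS, Acod1 led at 3206 CPM per kb, followed by Mdh2 at 105, Cs at 90.8 and Ogdh at 66.6 CPM per kb. Idh1 went from the second place to the eighth at 6.79 CPM per kb, where it overlapped Fh1 at 6.32. Under the KO label the order with PBS was led by Idh1 at 101 and Mdh2 at 75.1 CPM per kb. With LPS Acod1 was at 3811, Cs at 83.6 and Mdh2 at 78.1, the latter overlapping, and Idh1 was last at 5.30 CPM per kb.

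A ratio of 2 genes within a library does not depend on how libraries are scaled. The ratio of Idh1 to Idh2 per kb was 2.77, 2.57 and 2.67 in WT PBS and 0.307, 0.389 and 0.345 in WT LPS libraries. Under the KO label it was 3.41, 3.41 and 3.56 with PBS and 0.433, 0.538 and 0.430 with LPS. The cytosolic transcript therefore exceeded the mitochondrial one in all 6 PBS libraries and was below it in all 6 LPS libraries. The mean log2 ratio changed by -2.95 in WT and by -2.90 under the KO label. The ratio was higher under the KO label by 0.38 with PBS and by 0.43 with LPS, and in neither treatment did the libraries overlap.

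The malate dehydrogenases showed a smaller shift in the same direction. The ratio of Mdh1 to Mdh2 per kb was 0.400, 0.449 and 0.416 in WT PBS and 0.278, 0.353 and 0.328 in WT LPS libraries. Under the KO label it was 0.532, 0.491 and 0.509 with PBS and 0.290, 0.296 and 0.311 with LPS. The mean log2 ratio changed by -0.40 in WT and by -0.77 under the KO label, was higher under the KO label by 0.28 with PBS, and differed by -0.09 with LPS, where the libraries overlapped. Without WT LPS replicate 1, the lowest of its group, that difference was -0.19 and the remaining libraries did not overlap. Over the 8 ratio comparisons, 7 gave the smallest p that an exact two-sided permutation test of 3 against 3 libraries allows, 0.1 (adjusted p = 0.114), and the last gave p = 0.5 by the same exact test, so none can pass the threshold.

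**Figure D3:**
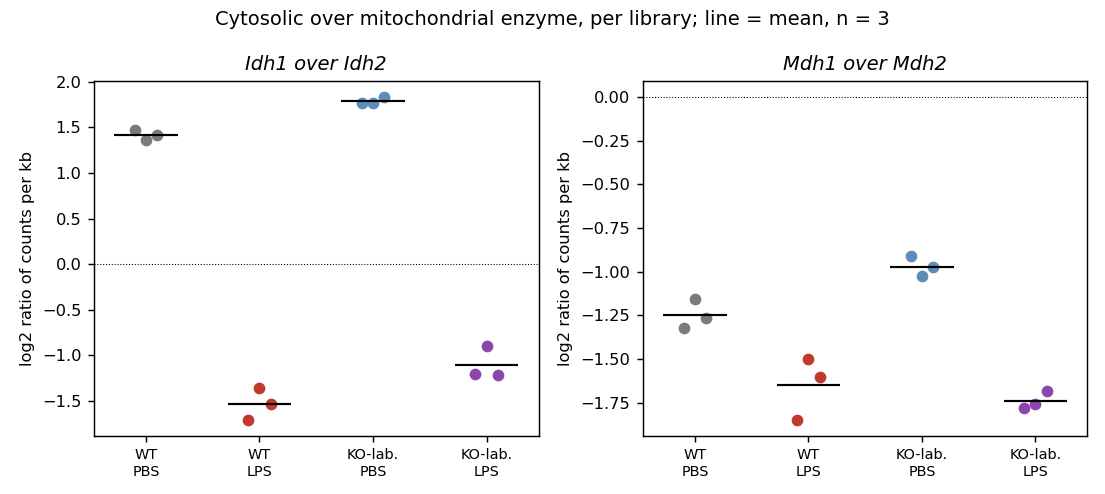
Log2 ratio of counts per kb of the cytosolic over the mitochondrial enzyme in each library (points), with the group mean of 3 libraries as a line; the dotted line at 0 marks equal levels. Idh1 over Idh2 lies above 0 in the PBS libraries and below 0 in the LPS libraries, and Mdh1 over Mdh2 lies below 0 in all 12.

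The second question was whether the KO label changed the members. With PBS, 1 of 9 members was higher under the KO label (Idh1) and 3 were lower (Cs, Mdh2 and Slc25a1), against 12.3% and 13.0% of all genes. Libraries of the 2 labels did not overlap for 8 of the 9 members, Acod1 being the exception, and for 48.1% of all genes tested. Mdh2 differed most, at 109, 112 and 108 CPM under the KO label against 149, 138 and 145 CPM in WT, a log2 fold change of -0.39 ± 0.0573 (adjusted p = 0.000120) that was called in all 22 alternatives. Cs was -0.25 ± 0.0587 (adjusted p = 0.00603), Slc25a1 -0.26 ± 0.0669 (adjusted p = 0.00932) and Idh1 0.22 ± 0.0553 (adjusted p = 0.00925). These 3 rested on single libraries: Cs was -0.19 (adjusted p = 0.0612) and Slc25a1 -0.21 (0.0684) without WT PBS replicate 1, and Idh1 was 0.19 (adjusted p = 0.0551) without WT PBS replicate 3. Slc25a1 was also lost without KO-labelled PBS replicate 1 (-0.24, adjusted p = 0.0530) or 2 (-0.20, adjusted p = 0.0751) and with a correction for GC content (-0.14, adjusted p = 0.0672). The other changes were -0.16 for Idh2, -0.26 for Ogdh, -0.15 for Fh1 and -0.12 for Mdh1, with adjusted p from 0.113 to 0.225. Fitted on only the PBS libraries all 4 passed (adjusted p = 0.0124 for Idh2, 6.95e-05 for Ogdh, 0.0371 for Fh1 and 0.0282 for Mdh1), which made 7 members lower in place of 3. Without WT LPS replicate 1, Idh2 (-0.16, adjusted p = 0.0416) and Ogdh (-0.26, adjusted p = 0.00623) passed, which made 5.

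With LPS, 0 of the 9 members were higher under the KO label by edgeR (0 at an unadjusted p under 0.05, and 0 by DESeq2) and 5 were lower, against 22.1% and 19.3% of all genes. The median of the members was -0.32, where that of all genes tested was 0.00059. Idh2 was the most reduced, at 20.3, 18.6 and 20.9 CPM against 37.8, 31.7 and 33.7 CPM, a log2 fold change of -0.79 ± 0.0815 (adjusted p = 1.87e-06). Mdh1 was lower by 0.52 on the log2 scale (log2 fold change -0.52 ± 0.0710, adjusted p = 3.20e-05), Mdh2 gave -0.42 ± 0.0583 (adjusted p = 3.29e-05) and Idh1 -0.36 ± 0.0738 (adjusted p = 0.00111). For these 4 genes the call was kept in all 22 alternatives. The libraries of the labels did not overlap for 7 of the 9 members (all but Ogdh and Fh1), and for 45.6% of all genes tested. Slc25a1 gave -0.32 ± 0.0679 (adjusted p = 0.00146), which a correction for GC content reduced to -0.08 (adjusted p = 0.235). Cs was -0.12 (adjusted p = 0.121), which became -0.19 (adjusted p = 0.0112) with upper-quartile scaling, -0.21 (adjusted p = 0.00553) by totals and -0.053 (adjusted p = 0.413) without WT LPS replicate 1. Fh1 was -0.08 (adjusted p = 0.463). Ogdh was -0.27 (adjusted p = 0.0838), which passed the test in 5 of the 22 alternatives and was -0.09 (adjusted p = 0.384) without WT LPS replicate 1.

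Acod1 did not pass the test in either treatment, but passed in both without KO-labelled PBS replicate 3. The 3 KO-labelled LPS libraries, at 9783 to 10184 CPM, were above the 3 WT LPS libraries, at 8320 to 8461 CPM, and the log2 fold change was 0.25 ± 0.216 (adjusted p = 0.395). KO-labelled PBS replicate 3, at 10.3 CPM, was more than 2 times as high as the other replicates of its group, and all 12 libraries shared the estimate of the spread. Without that replicate the LPS difference was 0.25 (adjusted p = 0.0198), and within the libraries compared alone it was 0.24 (adjusted p = 0.00979). The size of the LPS difference moved little, from 0.24 to 0.26 with any 1 library left out. The PBS difference was -0.25 ± 0.301 (adjusted p = 0.605), became -0.78 (adjusted p = 0.000636) without KO-labelled PBS replicate 3, and 0.03 without replicate 1.

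**Figure D4:**
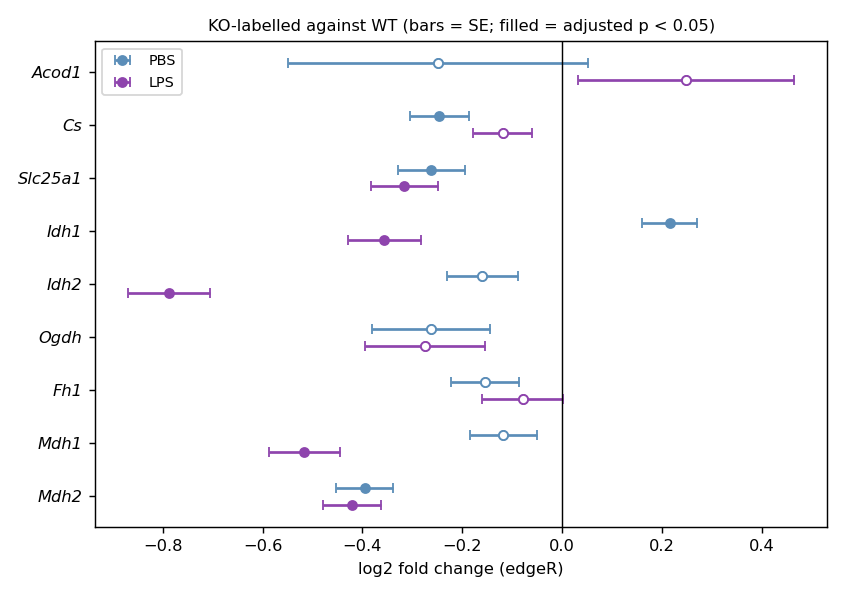
Log2 fold change of KO-labelled over WT (edgeR, bars are SE, 3 libraries per group) with PBS and with LPS, with filled points where the adjusted p is under 0.05. Idh1 lies to the right of 0 with PBS and to the left with LPS, Mdh2 lies at -0.39 and -0.42, and Acod1 has the widest bars.

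Whether the response to LPS differed with the label was tested as an interaction. It passed for 3 of 9 members, each with a deeper fall under the KO label, and for 0 in the other direction (0 also at an unadjusted p under 0.05 and by DESeq2), where 9.78% of all genes had a higher and 8.26% a lower interaction term. The terms were -0.57 ± 0.0922 for Idh1 (adjusted p = 0.000491), -0.63 ± 0.108 for Idh2 (adjusted p = 0.000823) and -0.40 ± 0.0977 for Mdh1 (adjusted p = 0.0102), and all of these were called in all 21 alternatives. Idh1 was higher under the KO label with PBS and lower with LPS, so its groups crossed. The remaining terms were 0.50 ± 0.371 for Acod1 (adjusted p = 0.416), 0.13 for Cs (adjusted p = 0.331), -0.01 for Ogdh (adjusted p = 0.978), 0.08 for Fh1 (adjusted p = 0.698), -0.03 for Mdh2 (adjusted p = 0.872) and -0.05 for Slc25a1 (adjusted p = 0.766). Acod1 reached 1.03 (adjusted p = 0.000326) without KO-labelled PBS replicate 3, and Cs 0.19 (adjusted p = 0.0428) without WT LPS replicate 1.

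Some marker lists of other cell types moved with the label. With LPS, the 12 skeletal muscle markers summed to 43.6 to 49.3 CPM in WT and to 1.71 to 2.49 CPM in KO-labelled libraries, where Idh2, Mdh1, Mdh2, Idh1 and Slc25a1 were lower too. The KO-labelled PBS libraries differed among themselves in muscle level. Replicate 3, with muscle markers at 3.76 CPM, had Mdh2 at 108 CPM, Mdh1 at 80.2, Idh2 at 48.0, Idh1 at 243, Slc25a1 at 48.7 and Acod1 at 10.3, and replicates 1 and 2, at 27.4 and 32.6 CPM, had Mdh2 at 109 and 112, Mdh1 at 84.1 and 79.7, Idh2 at 51.5 and 53.3, Idh1 at 249 and 258, Slc25a1 at 46.6 and 44.3 and Acod1 at 3.89 and 4.70. Of these 6 genes, Acod1 alone differed by more than 2 times between replicate 3 and the others. The differences of the other genes between the labels with LPS, 1.24 (Slc25a1) to 1.73 times (Idh2), were themselves smaller than that bar. The neutrophil list, nearly all Mmp8, summed to 103 to 107 CPM in WT PBS, 151 to 154 in KO-labelled PBS, 86.4 to 88.8 in WT LPS and 112 to 121 in KO-labelled LPS libraries, with 6 of the 8 genes in the tables, and the defining S100a9 and Retnlg had 0 to 2 counts and Ltf at most 9 in every library. S100a8, of the same list, was at most at 5.56 CPM with PBS, 7.58 to 9.59 in WT LPS and 7.90 to 15.2 in KO-labelled LPS libraries, and Camp had 0 counts with PBS and 4 to 13 with LPS. The T cell list summed to 1.95 to 2.97 CPM in the PBS libraries, 10.4 to 14.1 in WT LPS and 5.03 to 5.57 CPM in KO-labelled LPS libraries. Lck alone made up 8.39 to 13.0 CPM of it in WT LPS and 3.67 to 4.22 CPM in KO-labelled LPS libraries, while the defining Cd3d, Cd3e and Cd3g had 0 to 2 counts in every library. Cd4 went the other way, with 27 to 53 counts in PBS and 4 to 22 in LPS libraries, and was at 1.66 CPM or more in WT PBS against 0.948 to 1.23 in KO-labelled PBS libraries, while Cd8a had 8 to 33 counts. Mesothelial markers summed to 9.08 to 9.72 CPM in WT PBS and 4.85 to 7.21 in KO-labelled PBS, and to 9.19 to 11.2 in WT LPS and 6.08 to 9.02 in KO-labelled LPS libraries. Eosinophil markers summed to 2.65 to 3.54 and 1.52 to 2.74 CPM with PBS and to 2.37 to 2.51 and 0.995 to 1.72 CPM with LPS, in the same order of labels, and B cell markers to at most 1.92 CPM. The part of these cells in the results was not tested. In bulk RNA a lower level cannot be told apart from fewer cells that carry the transcript.

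The rest of the pathway was read from 40 other genes in 3 lists, of which 38 were tested. Pdk4 was below the count filter, and Sucnr1 was not found under that symbol among the genes counted. In WT, 7 rose with LPS, 18 fell and 13 did not pass, with a median log2 fold change of -0.17 against -0.05 over all genes, of which 36.5% were called higher and 40.2% lower. For these 38 the split in WT was 4 higher and 29 lower with upper-quartile scaling, 2 higher and 35 lower by library totals alone, and 11 higher and 16 lower with a GC correction. Under the KO label 10 rose and 21 fell, against 38.8% and 41.1% of all genes, and these became 4 and 27 with upper quartile and 2 and 34 by totals. Among 13 other subunits of the cycle 3 rose and 5 fell in WT, where 36.5% and 40.2% of all genes did. The 3 largest changes were Suclg2, the GTP-forming succinyl-CoA ligase subunit, at -0.83 (adjusted p = 1.06e-06), Dld, the subunit that the 2-oxoglutarate and pyruvate dehydrogenase complexes share, at 0.70 (adjusted p = 7.14e-08, but 0.036 with adjusted p = 0.645 by totals alone), and Idh3g, of the NAD-dependent isocitrate dehydrogenase, at -0.52 (adjusted p = 3.56e-06).

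At the entry of pyruvate, 2 of 12 genes rose and 6 fell in WT, against 36.5% and 40.2% of all genes. The 3 largest changes were falls in 2 of the kinases that switch pyruvate dehydrogenase off and in a phosphatase that switches it on. Pdk2 fell by 3.48 on the log2 scale, from a mean of 8.34 to 0.742 CPM (adjusted p = 4.25e-13), Pdp1 fell by 1.78 (adjusted p = 7.89e-13) and Pdk1 fell by 1.62 (adjusted p = 1.73e-11). The kinases did not move together: Pdk3, named after its values were seen, rose by 0.94 in WT (adjusted p = 6.06e-09) and by 0.53 under the KO label (adjusted p = 1.20e-05), the latter becoming -0.27 by totals alone. The other phosphatase, Pdp2, likewise named afterwards, fell by 0.72 in WT (adjusted p = 4.59e-07). Among 13 genes of citrate use, shuttles, glutamine entry and itaconate breakdown, 2 rose and 7 fell, against the same shares. The aspartate-glutamate carriers went opposite ways, Slc25a12 rising by 2.11 (adjusted p = 7.58e-14) and Slc25a13 falling by 1.63 (adjusted p = 6.41e-11). Aco1, the cytosolic aconitase, fell by 1.36 (adjusted p = 2.22e-11). With LPS, 4 of the 38 were higher and 20 lower under the KO label, with a median of -0.18, against 22.1% and 19.3% of all genes. The 4 became 2 without WT LPS replicate 1, WT LPS replicate 2 or KO-labelled LPS replicate 3, and also with upper-quartile scaling, totals, no filter or only the libraries compared, and 1 with a GC correction. With PBS 1 was higher and 7 were lower, against 12.3% and 13.0%. Neither PBS count was stable. The lower count was 3 without WT PBS replicate 1 or KO-labelled PBS replicate 2, and 4 without KO-labelled PBS replicate 1 or 3. It was 11 with upper-quartile scaling, and 12 without WT LPS replicate 1 or with only the libraries compared. The higher count was 0 without WT PBS replicate 2 or 3 or KO-labelled PBS replicate 1 or 2. That count was also 0 with upper-quartile scaling or a GC correction, 2 by totals and 3 with only the libraries compared. The interaction was called for 4 of the 38 upward and 5 downward, against 9.78% and 8.26% of all genes, and this became 0 and 15 by library totals alone and 2 and 10 with a GC correction. Leaving out 1 library at a time gave 0 (without KO-labelled PBS replicate 3) to 4 upward and 3 to 7 downward.

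How libraries are scaled bears on the direction of small changes with LPS. Against TMM, the median of all genes moved by -0.31 in WT and -0.36 under the KO label with upper-quartile scaling, by -0.66 and -0.80 with library totals alone, and by 0.05 and 0.03 with RLE. The share of higher genes among all called was 47.6% in WT and 48.6% under the KO label with TMM, 32.5% and 33.8% with upper quartile and 21.2% and 20.8% with totals. For KO-labelled against WT it went with PBS from 48.6% to 42.2% by upper quartile and 61.6% by totals, and with LPS from 53.4% to 41.6% by upper quartile and 37.9% by totals. For the interaction it went from 54.2% to 43.1% and 24.4%. Acod1, Idh1, Idh2, Fh1 and Mdh1 kept their direction with LPS under all 4 scalings, and Cs, Slc25a1, Mdh2 and Ogdh did not.

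**Figure D5:**
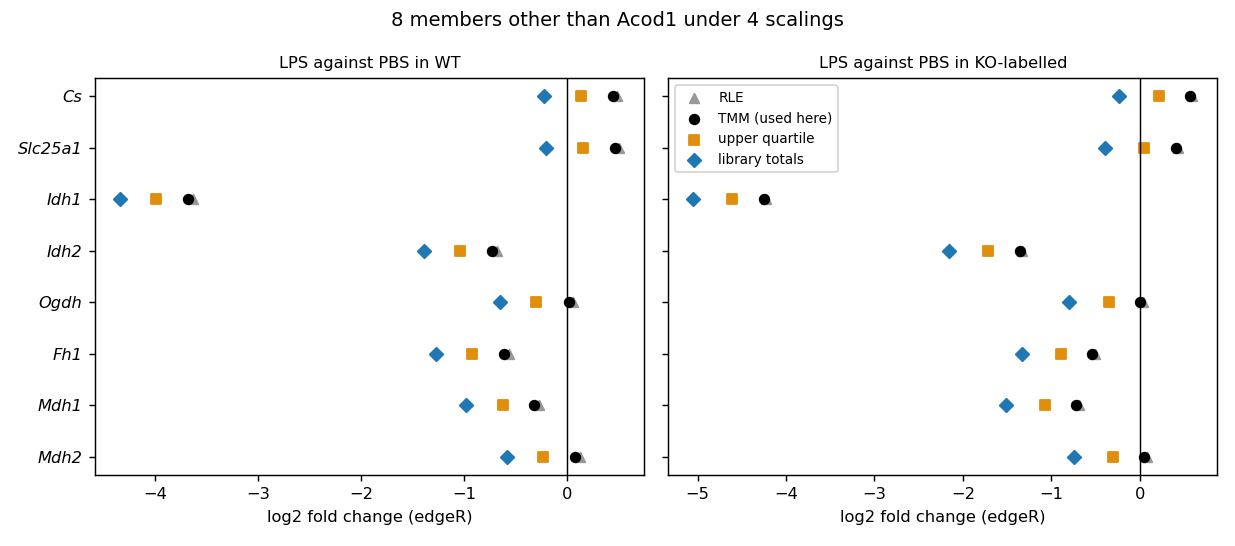
Log2 fold change of LPS over PBS for the 8 members other than Acod1 under 4 scalings of the libraries, in WT (left) and KO-labelled PMs (right). Idh1, Idh2, Fh1 and Mdh1 are left of 0 under each scaling, while Cs and Slc25a1 are left of 0 by library totals alone, and Ogdh and Mdh2 by totals and by upper quartile.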

How the data were processed

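RNA was extracted with a kit, and single-end reads were obtained on a BGISEQ-500 sequencer. The authors deposited 1 table per library of expected counts (estimated counts per gene, unscaled). The submitters' processing notes name Bowtie2, RSEM 1.3.1 and GRCm38.p6, while the study's methods name STAR and HTSeq. In each library 24.6% to 26.9% of genes had decimals, which arise where a counter shares reads between transcripts of different genes. Among the members, Ogdh carried decimals in 12 libraries, Cs in 4 and Mdh1 in 1. Values were rounded to whole counts. Genes were filtered with filterByExpr (12064 left), scaled by TMM, and tested with the robust quasi-likelihood test of edgeR 4.0.16 (R 4.3.3) over all 12 libraries, two-sided, with Benjamini-Hochberg adjustment over all genes tested and a threshold of 0.05. The SE is the log2 fold change divided by the root of F. The script was tested on simulated data. The biological coefficient of variation was 6.99%. The reads carried no molecular identifiers. The labels give no batch. Gene coordinates were those of the NCBI gene table of GRCm38.p6. Exon lengths and the GC share of transcripts were instead taken from GENCODE gene models, which gave values for 97.0% of genes. All 9 members are named, with the 3 genes of each pathway list that changed most with LPS in WT and the 5 most like Acod1 with at least 5 CPM. Members, lists and motifs were chosen with earlier results of these data known, and the motifs after the promoters had been seen. Alternatives were DESeq2 1.42.0, other scalings (RLE, upper quartile, totals), no filter, a minimum of 10 counts per library, only the libraries compared, a replicate block, unrounded counts, a GC correction and leaving out each library.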

Additional observations from a re-analysis of the deposited data

Results flagged for a closer look

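The response to LPS differed between the labels, by the interaction term of edgeR, for 10 of the 22 pathway and target genes tested by name (log2, KO-labelled minus WT), 1 upward and 9 downward, against 9.78% and 8.26% of all genes. These genes were named with results known, so the count is a description, and Clybl and Pdk3 were named after their values were seen. Among the members these were Idh1 (-0.57, adjusted p = 0.000491), Idh2 (-0.63, adjusted p = 0.000823) and Mdh1 (-0.40, adjusted p = 0.0102). Among other genes of the pathway they were Suclg2 (-0.65, adjusted p = 0.00771), Dld (0.32, adjusted p = 0.0284), Idh3g (-0.32, adjusted p = 0.0336), Pdk2 (-1.37, adjusted p = 0.0137, on a mean of 0.287 CPM in KO-labelled LPS libraries), Pdk3 (-0.41, adjusted p = 0.0182) and Clybl (-0.75, adjusted p = 0.00588). Of these, Dld no longer passed in 11 of 21 alternatives (upper-quartile scaling, library totals, GC correction and 8 single libraries left out, adjusted p up to 0.226) and Idh3g when any 1 of 9 libraries was left out (adjusted p up to 0.101). Pdk2 did not pass without KO-labelled LPS replicate 1 (adjusted p = 0.0555), nor Pdk3 without WT PBS replicate 3 (adjusted p = 0.0576). The targeted gene Ythdf1 itself rose less under the KO label (-0.42, adjusted p = 0.00177).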

How the results depend on the processing

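Over the log2 fold changes of the named genes and all alternatives, 1767 values kept their direction and side of the threshold, 32 lost and 27 gained significance, and 41 changed sign; the cause was not tested. With library totals alone, 1 member was higher and 8 were lower with LPS under each label; Cs was -0.22 in WT and -0.23 under the KO label, Slc25a1 -0.20 and -0.39, Mdh2 -0.58 and -0.75, Ogdh -0.65 and -0.80, Pdk3 under the KO label -0.27, and the interactions of Cs and Fh1 were -0.010 and -0.064. With upper-quartile scaling Ogdh was -0.30 and -0.35 and Mdh2 -0.23 and -0.30 with LPS. Ogdh was -0.021 and -0.038 without the filter and -0.020 and -0.043 with at least 10 counts in every library. With only the libraries compared, Ogdh was -0.0028 with LPS under the KO label, 7 members were lower under the KO label with PBS, and 1 was higher with LPS. With GC correction the interactions of Ogdh, Mdh2 and Slc25a1 were 0.059, 0.0068 and 0.055.

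Leaving out 1 library at a time, 0 to 1 members were higher and 1 to 5 lower under the KO label with PBS, 0 to 1 were higher with LPS and 0 to 1 had a higher interaction. Without WT PBS replicate 1 that count with PBS was 1 lower, and without WT LPS replicate 1 it was 5. Ogdh ranged from -0.17 to 0.13 in WT and -0.079 to 0.064 under the KO label with LPS, Acod1 from -0.78 to 0.034 with PBS and Ythdf1 from -0.055 to 0.012 with LPS between the labels, and the interactions of Ogdh, Mdh2 and Slc25a1 from -0.12 to 0.18, -0.083 to 0.015 and -0.12 to 0.026.

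With the replicate number as a block, 6 members rather than 5 were lower under the KO label with LPS, since Ogdh passed (-0.26, adjusted p = 0.0469), and no other member's call changed; 2 of the other pathway genes rather than 4 were higher under the KO label with LPS. No pairing of the libraries by number was seen: over 18 same-numbered pairs the correlation of deviations ran from -0.08 to 0.13, and 4 of 12 libraries correlated best with their own number. These correlations cannot show whether same-numbered libraries shared a mouse or a preparation.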

Other observations

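Clybl, which acts in the breakdown of itaconate to acetyl-CoA and pyruvate, went down in the groups in which Acod1 went up. It was singled out after its values were seen, and 40.2% of all genes tested fell with LPS in WT and 41.1% under the KO label. Its mean was 4.62 ± 0.0860 CPM (SD, n = 3) in WT PBS and 3.42 ± 0.181 CPM in WT LPS libraries, and 4.30 ± 0.0972 against 1.89 ± 0.0201 CPM under the KO label. The log2 fold change with LPS was -0.43 ± 0.109 (adjusted p = 0.00182, edgeR) in WT and -1.19 ± 0.126 (adjusted p = 1.82e-07) under the KO label, with no overlap between PBS and LPS libraries. With LPS it was lower under the KO label by 0.86 on the log2 scale (log2 fold change -0.86 ± 0.139, adjusted p = 0.000141), and with PBS the difference was -0.10 (adjusted p = 0.512).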
